A study of Mus musculus with 6 samples.

Results

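Neutrophil surface and granule genes were followed through fat grafting in mice. The set holds 8 genes, picked by symbol for their place in neutrophil biology: the surface receptors Csf3r, Cxcr2, Fpr1 and Clec4d, the surface antigen gene Ly6g, and the granule or secreted protein genes Mmp8, Retnlg and Elane. All 8 were among the 12163 genes of the deposited table. The mice were wild type and of the inbred strain C57BL/6, and their fat was sampled either before grafting, in 3 libraries, or on day 7 as a graft, in another 3. Total RNA was extracted with Trizol, and the submitters call the libraries of a group biological replicates. Every group shared strain and genotype, and the labels used here name no age, depot, recipient or graft site.

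Neutrophils are short-lived granulocytes that are made in the bone marrow under the control of granulocyte colony-stimulating factor and are drawn from the blood into injured tissue by CXC chemokines, complement fragments and formylated peptides. Their granules are filled in sequence as the cell matures: azurophil granules with elastase and related serine proteases at the promyelocyte stage, then specific granules, then gelatinase granules, so that mature cells carry granule proteins whose transcripts they no longer make. Resting adipose tissue holds few neutrophils, and they are among the first leukocytes to enter damaged tissue.

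Of the 8 genes, 7 rose in grafts and 1, Elane, fell. All 8 passed the filter on low values (at least 10 normalized reads in at least 3 libraries), and limma called all of them at an adjusted p under 0.05. Ly6g, Fpr1 and Clec4d reached 10 only in grafts and Elane only before grafting, while Mmp8 did so in a single library before grafting. These genes passed the filter only through the group where they were high, so their calls are not independent of the filter. The background was high, since nearly every listed gene differed between the groups: 80.4% of the 10854 tested genes were called, 41.3% higher and 39.2% lower in grafts, so the share of calls by itself is not a result about these genes. The counts of called genes in the lists below have the same background. Their median log2 fold change (grafts over before grafting) was 5.60, and the median over all tested genes was 0.28. Each of the 7 that rose ranked 338 or nearer to the top of the 10854. The 8 genes were chosen with earlier results of these data known, so this median and these ranks are descriptions and not a test. Grafts and fat before grafting did not overlap for any of the 8, as for 97.6% of tested genes (grafts all higher in 49.6% and all lower in 48.0%). In bulk tissue, more neutrophils and more RNA of these genes per cell cannot be told apart.

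**Figure D1:**
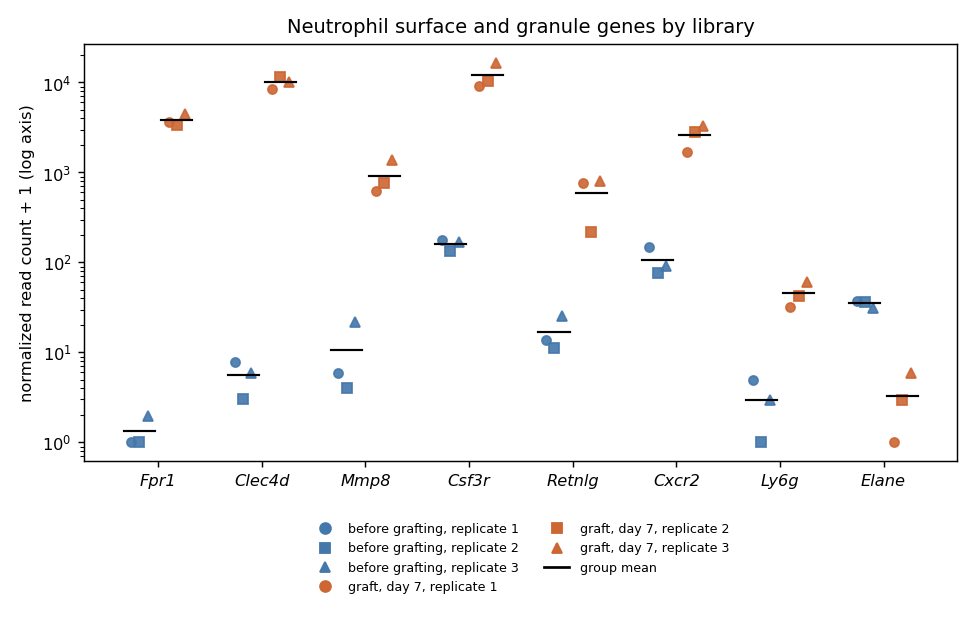
Normalized read count + 1 on a log axis for the 8 genes in each of the 6 libraries, blue before grafting and orange in grafts, with 1 symbol shape per replicate number and a black bar at each group mean. In the 7 genes that rose every graft lies above every library before grafting, and in Elane every graft lies below.

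Because 7 of these genes rose together while 1 fell, the upstream sequences of a few are shown for comparison, with Ly6g and Mmp8 as genes that rose, Elane as the gene that fell and Fpr1 as a gene with 1 read in all before grafting. They are the bases upstream of the RefSeq transcription start (GRCm38.p6), 5′ to 3′, cut where the GENCODE gene begins. Capitals mark 2 short motifs on either strand: GAGGAA, a purine-rich core bound by ETS factors such as PU.1, and TTGCNNAA, a C/EBP-type core.
Ly6g (chr15:75155011-75155239, plus strand): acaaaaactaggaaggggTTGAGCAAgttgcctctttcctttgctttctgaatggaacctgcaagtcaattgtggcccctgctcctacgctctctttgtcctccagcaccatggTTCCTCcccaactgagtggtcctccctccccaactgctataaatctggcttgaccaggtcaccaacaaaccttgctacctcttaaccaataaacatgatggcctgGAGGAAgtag
Mmp8 (chr9:7558179-7558428, plus strand): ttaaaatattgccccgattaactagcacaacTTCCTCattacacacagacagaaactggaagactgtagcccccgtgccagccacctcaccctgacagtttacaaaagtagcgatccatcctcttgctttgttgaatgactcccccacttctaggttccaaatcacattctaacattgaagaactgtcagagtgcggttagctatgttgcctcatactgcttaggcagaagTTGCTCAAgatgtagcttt
Elane (chr10:79886062-79886246, plus strand): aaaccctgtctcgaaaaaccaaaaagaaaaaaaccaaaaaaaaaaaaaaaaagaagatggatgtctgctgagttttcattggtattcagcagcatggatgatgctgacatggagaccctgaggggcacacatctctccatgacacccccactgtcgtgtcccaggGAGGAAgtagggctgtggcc
Fpr1 (chr17:17883941-17884189, minus strand): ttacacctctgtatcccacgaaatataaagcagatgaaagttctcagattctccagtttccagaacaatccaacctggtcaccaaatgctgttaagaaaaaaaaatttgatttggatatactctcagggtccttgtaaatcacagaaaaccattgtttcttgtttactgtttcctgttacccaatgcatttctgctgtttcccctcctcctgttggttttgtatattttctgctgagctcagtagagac
Over the 250 bases upstream of the RefSeq start, 6 of the 8 genes held GAGGAA, against 23.3% of 32851 mouse promoters of that length, and 3 of the 8 held TTGCNNAA, against 9.56%. The 6 were Ly6g, Cxcr2, Csf3r, Mmp8, Clec4d and Elane, and the 3 were Ly6g, Mmp8 and Retnlg. The match of Csf3r lies inside the GENCODE gene. The 8 genes were chosen with earlier results of these data known, so these shares are descriptions and not a test. The longest run shared by the printed Ly6g and Elane sequences was GGAGGAAGTAG, with 11 bases, close to the start of both genes, and 0.0731% of the promoters held it. That run was looked for after the sequences had been seen. A gene that rose and the gene that fell thus shared that run and its GAGGAA, so neither separated the directions. The 3 genes with TTGCNNAA all rose and Elane had none, but Fpr1 rose and held neither motif. With 1 gene that fell, a separation by TTGCNNAA cannot be judged. A match is a description of letters and not a binding site.

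The receptor for granulocyte colony-stimulating factor, Csf3r (ENSMUSG00000028859, chromosome 4, 126024550 to 126044440, plus strand, up to 17 exons), had the most reads of the 8 in grafts. It had 178.5, 134.7 and 168.2 normalized reads in the libraries before grafting and 9148, 10467 and 16473 in grafts, or 160.5 ± 22.9 against 12029 ± 3904 (SD, n = 3 each). Graft 3 was the highest, and the lowest graft was still far above all libraries before grafting (log2 fold change 6.18, SE 0.22, adjusted p = 1.65e-06). Of the 50-base stretches of its longest transcript, 11.5% also occur in transcripts of other genes, mostly in the pseudogene AC105061.2, so a small part of its reads is uncertain. Csf3, which encodes its ligand, rose as well, from 1.0, 0.0 and 3.0 to 927.0, 1424 and 1382 normalized reads. All 8 tested cytokine and growth factor receptors of neutrophils and their precursors rose, with a median of 2.50, and Csf3r had the largest change, followed by the interleukin 1 receptor accessory gene Il1rap (3.22) and the interleukin 4 receptor gene Il4ra (2.69).

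Cxcr2, the receptor for the neutrophil-attracting CXC chemokines (ENSMUSG00000026180, chromosome 1, 74153989 to 74161246, plus strand), had 148.9, 75.0 and 89.5 normalized reads before grafting and 1707, 2815 and 3300 in grafts. Graft 1 was the lowest and the groups were apart (log2 fold change 4.64, SE 0.31, adjusted p = 2.48e-05). Its sister receptor Cxcr1 went from 0.66 ± 0.57 to 91.3 ± 41.8 (log2 fold change 5.78). Of 10 attractants and growth factors of neutrophils, 7 were in the table and 6 were tested, and all 6 rose (median 10.38, or 10.10 with the gene at 0 before grafting set to its bound), led by Cxcl2 (13.12), Cxcl3 and Cxcl5 (11.49). Cxcl3 was without reads before grafting, and its level in grafts was at least 1967-fold higher than the floor of 3 reads per library. Cxcl15, Csf2 and Hc were not analysed here. Il17a, the interleukin that drives granulocyte recruitment, was listed but not tested, with no read before grafting and 4.0, 99.9 and 39.6 normalized reads in grafts.

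Fpr1, the receptor for formylated peptides of bacteria and mitochondria (ENSMUSG00000045551, chromosome 17, 17876471 to 17883940, minus strand), had the largest fitted change of the 8 with a pseudocount of 1. It had 0, 0 and 1 read in the libraries before grafting and 3613, 3489 and 4535 reads in grafts, and the 3 grafts were close to each other, with a coefficient of variation of 15.1%. The ratio was 11561 with an exact 95% counting interval of 2075 to 456671, which covers counting error only, and the fitted log2 fold change was 11.56 (SE 0.32, adjusted p = 6.77e-07). With a pseudocount of 5 it was 9.49, below the 10.05 of Clec4d, whose counting interval of 1290 to 3960 overlaps that of Fpr1, so the order of these genes is not settled. Its neighbour Fpr2 lies 3883 bp away and went from 7.59 ± 3.10 to 3426 ± 403. Fpr3 was at 0 in all libraries before grafting and at 23.1, 30.1 and 27.7 in grafts, which is at least 9.04-fold higher by the same floor. The annotated spans of Fpr2 and Fpr3 overlap, so reads of those genes may not be told apart. All 11 receptors for chemoattractants rose, with Fpr1, Fpr2 and the chemokine receptor gene Ccr1 (5.81) in the lead, and a median of 4.64, or 4.09 with Fpr3 at its bound. Several of them, among them C5ar1 and Ccr1, are also receptors of monocytes and macrophages.

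Clec4d encodes the C-type lectin MCL, an activating receptor for mycobacterial glycolipids on neutrophils and other myeloid cells (ENSMUSG00000030144, chromosome 6, 123262111 to 123275265, plus strand). It had 6.9, 2.0 and 4.9 normalized reads before grafting and 8510, 11530 and 10035 in grafts. The 3 grafts lay within a factor of 1.35 of each other (log2 fold change 10.90, SE 0.33, adjusted p = 1.08e-06). Clec4e, the gene of its partner Mincle, lies 6523 bp away on the other strand and had 12.5 ± 6.9 normalized reads before grafting and 13484 ± 3150 in grafts (log2 fold change 10.09). Of 12 listed C-type lectins and signal partners, 11 rose (median 3.40), led by Clec4d, Clec4e and Clec5a (4.87), a receptor gene of myeloid cells. Clec4b1, a lectin gene of the same family, was the 1 that fell, from 79.4 ± 23.1 to 13.6 ± 6.6 (log2 fold change -2.52).

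Ly6g, which encodes the GPI-anchored antigen used to identify mouse neutrophils (ENSMUSG00000022582, chromosome 15, 75155240 to 75159126, plus strand), had few reads. It had 4, 0 and 2 reads before grafting and 31, 43 and 61 reads in grafts. The groups were apart, and the 141 reads in all gave a ratio of 22.4 with an exact 95% counting interval of 10.01 to 62.0 (log2 fold change 4.16, SE 0.62, adjusted p = 0.00186). Without replicate 2 before grafting, the library at 0, the log2 fold change was 3.52. Only 0.4% of the 50-base stretches of its transcript occur in other genes, so shared sequence touches few of its reads. Of 9 tested genes of the Ly6 family, 2 rose, Ly6g and Ly6i (3.88), and 5 fell, led by Ly6d (-4.56) and Ly6h (-4.16). Over all tested genes 41.3% were called higher and 39.2% lower, so these counts by themselves are not a result about the family. Ly6c2, the gene of the Ly6C antigen of monocytes, had 335.7 ± 146.5 before grafting and 726.3 ± 280.9 in grafts, and missed the threshold (log2 fold change 1.10, adjusted p = 0.115). Among the Ly6 genes 4 rose without graft 1, and 3 fell without replicate 2 or without replicate 3 before grafting.

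Mmp8 encodes neutrophil collagenase, a specific granule enzyme that cleaves fibrillar collagen (ENSMUSG00000005800, chromosome 9, 7558456 to 7568485, plus strand). It had 4.9, 3.0 and 20.7 normalized reads before grafting and 616.7, 765.2 and 1358 in grafts. Graft 3 was the highest, and replicate 3 before grafting was 6.80 times replicate 2 at these low levels (log2 fold change 6.75, SE 0.60, adjusted p = 0.000118). Without replicate 3 before grafting the log2 fold change was 7.46. Mmp27, which starts 2910 bp downstream on the same strand, differed far less, with 101.3 ± 11.9 before grafting and 154.7 ± 27.3 in grafts. Of the collagenases and inhibitors, 5 of 9 tested genes rose (median 3.87), led by the inhibitor genes Timp1 (8.79) and Slpi (8.20) and the collagenase gene Mmp13 (8.09). With 41.3% of all tested genes called higher and 39.2% lower, such counts by themselves are not a result about the list. Slpi encodes an inhibitor of neutrophil serine proteases. Mmp13 rested on unequal grafts, with 292.3, 4216 and 1164 normalized reads. The 3 that fell were led by Timp4 (-9.29) and by Serpina1a, a gene of the plasma inhibitor of elastase. Serpina1a had no read in any graft and was at least 13.5-fold lower there.

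Retnlg, a resistin-like secreted protein gene expressed in bone marrow and neutrophils (ENSMUSG00000022651, chromosome 16, 48872621 to 48874496, plus strand), was the most uneven of the 7 genes between grafts. It had 12.8, 10.1 and 24.6 normalized reads before grafting and 770.3, 219.2 and 800.3 in grafts. Graft 2 stood well below the other grafts and still above all libraries before grafting (log2 fold change 5.03, SE 0.53, adjusted p = 0.000296), and without graft 2 the log2 fold change was 5.64. The other listed members of its family went the opposite way. Retn, which encodes resistin and is made by mouse adipocytes, went from 13307 ± 2419 to 677.6 ± 610.9, and Retnla, a gene of alternatively activated macrophages, from 3617 ± 229 to 10.4 ± 9.5. Of 9 tested genes of specific and gelatinase granules, 8 rose, with a median of 5.19, led by Lcn2 (8.61), Mmp8 and the gelatinase gene Mmp9 (5.77). Hp, also in that list, already had 21413 ± 3547 normalized reads before grafting, and 62969 ± 3422 in grafts. Which cells gave the reads of the genes in that list was not tested. Mmp25, a membrane metalloproteinase of neutrophils, went from 109.2 ± 43.7 to 248.4 ± 98.8 and missed the threshold (adjusted p = 0.101). Cd177, a surface antigen stored in these granules, had a low level and a smaller change, from 15.5 ± 7.1 to 65.4 ± 21.4 (log2 fold change 2.03, adjusted p = 0.00968). The specific granule genes Ltf, Camp and Ngp were not in the table and were not analysed here. The table seems to be restricted to genes that differ, so the count of 8 of 9 holds for listed genes only.

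Elane encodes neutrophil elastase, the serine protease of azurophil granules (ENSMUSG00000020125, chromosome 10, 79886247 to 79888215, plus strand, 5 exons). It had 37, 35 and 31 reads in the libraries before grafting and 0, 2 and 5 reads in grafts. The libraries before grafting were close to each other, and the highest graft was well below them (log2 fold change -3.76, SE 0.64, adjusted p = 0.00377). The ratio of fat before grafting to grafts was 14.8, with an exact 95% counting interval of 6.94 to 37.8. Without graft 1, the graft at 0, the log2 fold change was -3.07, and without graft 3 it was -4.35. Prtn3, the gene of the related protease proteinase 3, ends 3072 bp upstream on the same strand and fell too, from 207.1, 258.3 and 155.4 to 64.3, 25.2 and 46.5 normalized reads (log2 fold change -2.23, adjusted p = 0.00273). These were the only members of a list of 7 azurophil granule and promyelocyte genes in the table, and Mpo, Ctsg, Prss57, Bpi and Ms4a3 were not analysed here. Cfd, the adipocyte gene of adipsin, begins 2637 bp downstream of Elane on the same strand and moved in the same direction, from 118635 ± 39796 to 2354 ± 1888 normalized reads. Within the grafts Cfd had 4437, 1872 and 753.8 normalized reads in grafts 1, 2 and 3. The 0, 2 and 5 reads of Elane there are too few to give an order, and a shared source of both falls was not tested. No 50-base stretch of the Elane transcript occurs in the transcript of another gene.

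**Figure D2:**
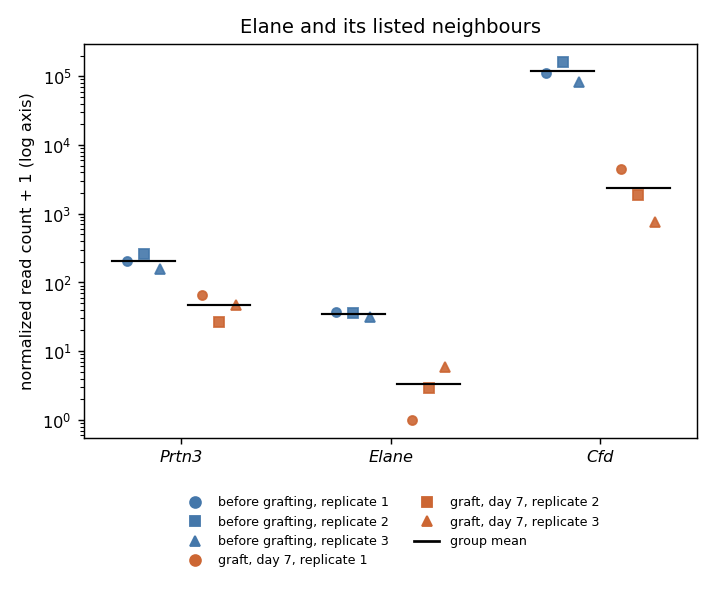
Normalized read count + 1 on a log axis for Prtn3, Elane and Cfd, which lie in this order on chromosome 10, in each of the 6 libraries, with group means as black bars. All 3 genes are lower in every graft (orange) than in every library before grafting (blue). Cfd is above the others in each library, by orders of magnitude before grafting and less far above Prtn3 in grafts.

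Per kb of the listed gene length, the order of levels in grafts was Clec4d (6269 ± 944 normalized reads per kb), Csf3r (3333 ± 1082), Fpr1 (2895 ± 437), Retnlg (1006 ± 552), Cxcr2 (855 ± 268), Mmp8 (377 ± 162), Ly6g (47.1 ± 15.7) and Elane (2.33 ± 2.53). Csf3r and Fpr1 overlapped between grafts, as did Retnlg and Cxcr2, and those neighbours in the order did not differ beyond their spread. Retnlg overlapped Mmp8 too, and the lowest graft of Cxcr2 (560.2 per kb) was barely above the highest graft of Mmp8 (560.1 per kb). Ly6g stood apart from the other genes that rose, since its highest graft (64.1 per kb) was below the lowest graft of Mmp8 (254.3 per kb). Before grafting the order was another one, with Csf3r (44.5 ± 6.3 per kb), Elane (34.7 ± 3.3), Cxcr2 (34.3 ± 12.8) and Retnlg (26.7 ± 13.0) above Mmp8 (3.93 ± 3.99), Clec4d (2.89 ± 1.53), Ly6g (2.09 ± 2.09) and Fpr1 (0.25 ± 0.43). Fpr1 and Clec4d, at the low end before grafting, were thus among the highest in grafts, and Elane was the lowest there. Before grafting Cxcr2 overlapped Csf3r, Elane and Retnlg between libraries, and Retnlg overlapped Csf3r and Elane. At the low end Mmp8, Clec4d and Ly6g overlapped each other, and Fpr1 overlapped Ly6g. The places of genes in such pairs did not differ beyond the spread.

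**Figure D3:**
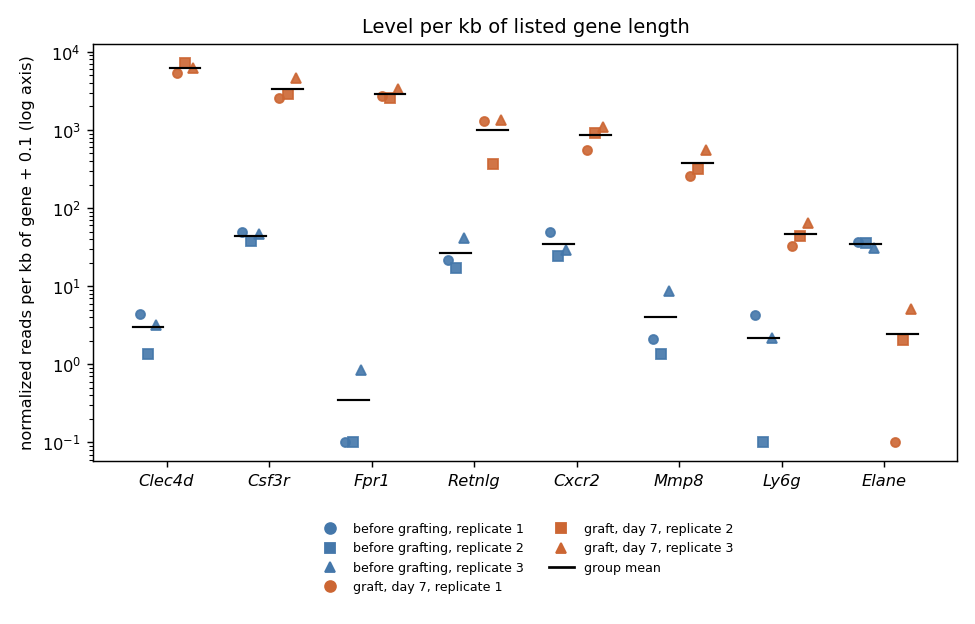
Normalized reads per kb of listed gene length + 0.1 on a log axis, with genes ordered by their mean level in grafts, 3 libraries before grafting in blue and 3 grafts in orange, and group means as black bars. Clec4d, Csf3r and Fpr1 lie between 2535 and 7211 per kb in grafts, and Ly6g stays at 33.1 to 64.1 per kb.

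The grafts were not alike for these genes. Of the 7 genes that rose, 6 had their highest value in graft 3 and 5 had their lowest in graft 1, the exceptions being Clec4d, highest in graft 2, and Retnlg and Fpr1, lowest in graft 2. Other neutrophil lists shared that order to different extents. Of 8 cytokine and growth factor receptor genes that rose, Csf3r among them, 6 were highest in graft 3 and 6 lowest in graft 1. Of 17 other mature neutrophil transcripts that rose, 7 were highest in graft 3 and 6 in graft 1. Among those 17, 9 were lowest in graft 1 and 1 in graft 3. Of 8 specific and gelatinase granule genes, 3 were highest and 4 lowest in graft 3. Of the 11 macrophage markers that rose, 9 were highest in graft 1 and 8 lowest in graft 3, and Adgre1, which encodes F4/80, had 9606, 5258 and 6167 normalized reads in grafts 1, 2 and 3. Over all 4479 genes called higher, 38.9% were highest in graft 1 and 27.1% in graft 3, while 38.3% were lowest in graft 1 and 39.0% in graft 3. Plin1, the gene of the adipocyte protein perilipin, was also highest in graft 1, at 1519, 286.1 and 205.8. With 3 grafts these orders are descriptions, and no test was made of them.

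**Figure D4:**
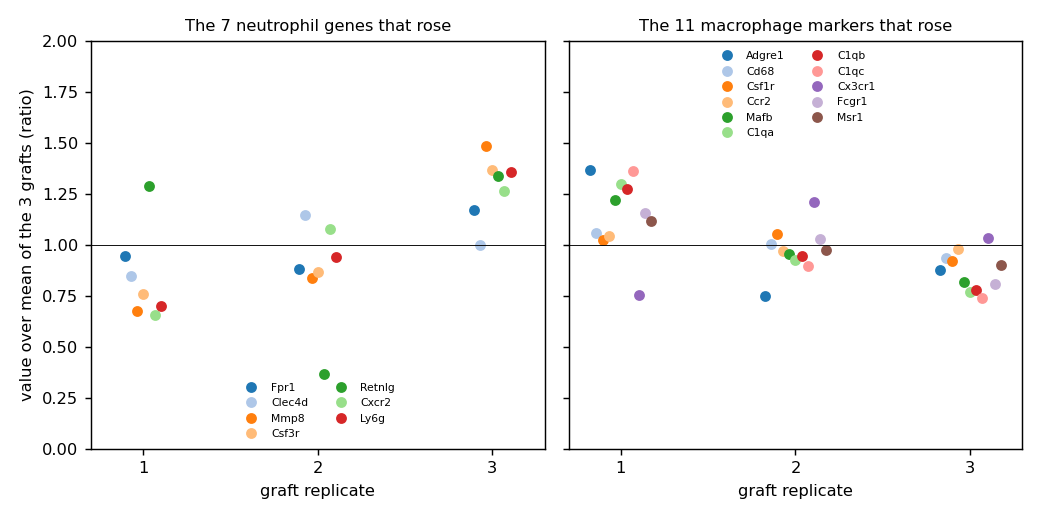
Value in each graft divided by the mean of the 3 grafts, for the 7 neutrophil genes that rose (left) and the 11 macrophage markers that rose (right), with 1 colour per gene and a line at 1. On the left most points of graft 3 lie above 1 and most of graft 1 below, and on the right most points of graft 1 lie above 1.

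Other transcripts of mature neutrophils were examined as a list. Which cells gave the reads of these genes, or of the further lists in this paragraph, was not tested. Of 18 tested, 17 rose (median 7.05, or 6.55 with the 3 genes at 0 before grafting set to their bounds), led by the stefin gene Stfa2l1 (9.65), Trem1, an amplifier of myeloid inflammation (9.47), and the calprotectin gene S100a8 (7.76). The stefin genes Stfa2, Stfa2l1, Stfa3 and BC100530 are close copies of each other, and their values are uncertain. Wfdc21, a small secreted inhibitor-like protein gene, went from 681.1 ± 97.7 to 1103 ± 496 and missed the threshold (adjusted p = 0.756). Of 7 tested genes of the oxidative burst and of extracellular traps, 6 rose (median 2.73), including the NADPH oxidase gene Cybb (3.09) and Padi4, which citrullinates histones (2.89). Of 6 tested adhesion genes 5 rose (median 1.74), led by the integrin genes Itgam (4.33) and Itgb2 (2.57), and the count was 3 with ribosomal protein genes set to no change. Among transcription factors of granulocyte development, 4 of 7 tested genes rose and 2 fell (median 1.66), where 41.3% of all tested genes were called higher and 39.2% lower. Those that rose were led by Cebpb (3.32), Runx1 (3.22) and Spi1, the gene of PU.1 (3.00), and those that fell were Myb (-3.73), a factor of progenitors, and Cebpa (-2.38), which adipocytes also express. Cebpe, the factor of specific granule genes, was not tested and had 5.67 ± 3.58 before grafting and 21.6 ± 15.2 in grafts.

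Markers of other leukocytes moved in the same libraries. Of 15 tested monocyte and macrophage markers, 11 rose and 2 fell (median 1.76), led by Msr1 (4.66), Fcgr1 (3.59) and Adgre1 (3.00). Timd4 (-5.60) and Lyve1 (-3.31), both found in resident macrophages, were lower, and the cells behind their fall were not tested. The summed level of the 15 markers was 17915 to 22065 normalized reads before grafting and 63524 to 87378 in grafts. None of the 15 was at 0 in either group. Csf3r, Fpr1, Clec4d and Cxcr2 can also be expressed by monocytes or macrophages, and the part of those cells in the rise was not tested. Of 5 tested genes found in all leukocytes, 4 rose, with Itgb2, Lcp1 (2.04) and Cd53 (1.90) in the lead, a median of 1.90, and a summed level of 13906 to 21430 before and 49855 to 54603 after grafting. Of 4 tested eosinophil markers, 1 rose, the eotaxin receptor gene Ccr3 (1.97), and 2 fell, Il5ra (-3.12) and Ear2 (-2.55), with a summed level of 293.8 to 363.9 before and 146.4 to 203.7 after. No mast cell marker of 3 tested was called by limma, although all 3 had an unadjusted p under 0.05 and log2 fold changes of -2.33 to -1.99, and all 3 were called lower without graft 1 or without graft 3. All 6 adipocyte markers fell (median -5.83), led by Lep (-8.65), Adipoq (-6.68) and Cidec (-6.12). None of the 6 red cell genes was analysed here, so the blood content of the tissue was not measured.

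By pattern, the closest genes were those with the smallest Euclidean distance between log2(normalized read count + 1) profiles over the 6 libraries, each centred on its own mean. For Clec4d these were Il1b (distance 0.71), Serpinb2 (0.84) and Clec4e (1.05), and for Fpr1 they were Gm5483 (1.33), Il1b (1.44) and Clec4d (1.48). Csf3r was closest to Gm2511 (0.47), the myeloid inhibitory receptor gene Cd300lf (0.55) and AC241601.2 (0.61), and Cxcr2 to Ccbe1 (0.41), Ifitm1 (0.50) and Sirpb1a (0.52). Ly6g was nearest to Tnfrsf8 (0.64), Gm20100 (0.77) and Syt8 (0.89), and Mmp8 to Inava (0.96), Fbn2 (1.02) and Raet1d (1.09). Retnlg had no gene nearer than Saa2 (1.01), with Olfr809 (1.22) and Kcnf1 (1.25) next. Elane was nearest to Gm15411 (0.44), Trbv17 (0.64) and Gkn3 (0.72), and the latter went from 24.5 ± 2.5 to 0.98 ± 0.99. With 6 libraries in 2 groups, a short distance mainly says that the size of the change was alike.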

How the data were processed

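Fat RNA was sequenced from 3 libraries before and 3 libraries 7 days after grafting. The deposited unit is a signal per gene: within each library 100% of values were whole multiples (within 0.001 reads) of a single step, so they were read as the authors' counts over a size factor, and called normalized reads. The listed genes took 13027776 to 15924559 reads per library, and full depth is unknown. The deposited gene length (unit: other, in bp) gave levels per kb. Per the submitters' processing notes, the tools were Bowtie 0.12.2 and HISAT2 2.0.5 and the named builds were mm8 and mm9, but 12011 of 12163 deposited positions lay within 1000 bp of GENCODE M21 (GRCm38). The sources used here do not give the counter, its strand use or the rule by which genes were listed. The design text speaks of biological replicates, with no animals named, so p-values measure the spread between these samples.

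The table seems to be restricted to genes that differ, since an unadjusted p under 0.05 was found for 10772 of 10854. Log2(value + 1) was fitted with limma 3.58.1 (R 4.3.3; mean trend, robust, two-sided) on group, for genes of at least 10 in at least 3 libraries, and Benjamini-Hochberg adjustment ran over 55462 annotated genes, with unlisted genes at the highest p. Its variance prior rests on selected genes. The fit was tested on simulated data in which few genes changed. Most genes of this table differ, so that test does not cover the variance prior or the adjustment here. A fold on the log2(value + 1) scale understates changes of low genes. Genes named were the 8, per list up to 3 called genes of the more frequent direction and up to 2 of the less frequent, the resistin family, and the 3 nearest in pattern; neighbours, and genes given for a single contrast, were chosen after values were seen. Members and lists were chosen with earlier results of these data known. Python 3.11.15, pandas 2.3.3 and scipy 1.17.1 handled tables. Promoters are RefSeq's.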

Additional observations from a re-analysis of the deposited data

How the results depend on the processing

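Each of the 8 genes kept its direction and its side of the threshold under every alternative in which it was tested: median-ratio, listed-total and upper-quartile scaling, ribosomal protein genes at no change (a shift of -0.73 in log2 before the pseudocount, and less for genes with few reads), pseudocounts of 0.5 and 5, no filter, a minimum of 50, adjustment over tested genes only, the replicate block, and each library left out. With the minimum of 50 genes called lower numbered 0, because Elane was not tested, and genes called higher 6, because Ly6g was not tested. A pseudocount of 5 gave 2.82 for Ly6g, -2.48 for Elane, 6.09 for Mmp8, 9.49 for Fpr1 and 10.05 for Clec4d, and a pseudocount of 0.5 gave 12.37 for Fpr1. With libraries left out, log2 fold changes were 3.52 to 4.67 for Ly6g, 6.25 to 7.46 for Mmp8, 4.71 to 5.64 for Retnlg and -4.35 to -3.07 for Elane, and the highest adjusted p over all alternatives, for Elane, was 0.022. Of 8730 calls over all genes, 51.3% were higher, and under the ribosomal setting 25.5% (1914 higher, 5578 lower). With the replicate block 7556 genes were called, with 7 of the 8 higher and 1 lower; same-numbered libraries correlated at -0.157, -0.127 and 0.041 after group means were removed, so the numbers were not taken as pairs. Among list counts, 1 mast cell gene fell with ribosomal protein genes at no change, all 3 fell with adjustment over tested genes only or without graft 1 or graft 3, and 1 basophil gene rose with no filter. Higher eosinophil genes were 2 with a pseudocount of 5, with no filter, with adjustment over tested genes only and without replicate 2 before grafting, and 4 Ly6 genes rose with adjustment over tested genes only. The planned count models were not run, because the unit check did not accept reads recovered from normalized values. Depth limits Ly6g, Elane and Fpr1 most, each with under 10 reads in 1 group.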
